A study of Mus musculus with 12 samples.

Results

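The genes for the proteins of the cytosolic ribosome were followed in mouse livers after chronic injury with CCl4 and treatment with silibinin or phloridzin. Members were chosen by symbol in the deposited FPKM table: Rpl or Rps followed by a digit, together with Rplp0, Rplp1, Rplp2 and Rpsa, without the Rps6k kinases, Rps19bp1 and symbols with -ps, which mark pseudogenes. The rule gave 91 of 24296 gene symbols, with 452 of 169430 transcripts. They are 77 genes for the standard proteins and 14 paralogs or retrocopies, and by symbol 54 of the 91 fall to the large subunit and 37 to the small subunit. Rpl32l, Rpl37rt, Rpl6l, Rps12l1, Rps3a2, Rps3a3 and Rps4l have no transcript annotated as protein-coding but are counted as members. Among the 452 transcripts 5 are annotated as processed pseudogenes and 1 as a transcribed processed pseudogene. Of the 91 genes, 87 reached a mean of 0.5 FPKM over the 12 livers and were tested. Rpl17, Rpl37rt, Rpl39l and Rpl3l did not. Rpl29 passed through the mean of only 1 group.

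The ribosome joins these proteins with ribosomal RNA in nearly equal amounts, and the mRNAs of the standard proteins are short and abundant in every cell. Many of these mRNAs are described to begin with a C followed by a run of pyrimidines, the terminal oligopyrimidine (TOP) motif, through which the mTOR pathway controls their translation. An mRNA level is therefore only 1 of the layers that set the output of a ribosomal protein, and no protein was measured here.

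Total RNA of 12 livers of male C57/BL6N mice was sequenced, with 3 separate livers in each of 4 groups. The control mice received no CCl4, and their vehicle is not stated. The model mice received CCl4 in olive oil by intraperitoneal injection at 5 mL per kg, 2 times per week for 8 weeks. The silibinin and phloridzin mice received the same injections and the drug from week 5, phloridzin at the high dose. Silibinin is the flavonolignan of milk thistle that serves as the reference drug, and phloridzin is a dihydrochalcone glucoside of apple that inhibits glucose transporters. The depth, read from the steps between the lowest values, was 105200000, 108400000 and 109600000 fragments in the control livers, 83700000, 101500000 and 100100000 in the model livers, 106700000, 110900000 and 110100000 in the silibinin livers and 102100000, 104700000 and 98400000 in the phloridzin livers. At 100000000 fragments and the median member length of 795 bases, 1 FPKM stands for 79.5 fragments, so the depth limits only the lowest members.

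Hepatocyte markers fitted the tissue label in all 12 livers. The 10 markers, led by Alb, summed to between 18977 and 39028 FPKM per liver, above every other marker list. No other marker list exceeded 1149 FPKM in any liver.

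Phloridzin replicate 1 (G1) stood apart from phloridzin replicates 2 and 3 (G5 and G8), and the main phloridzin results are therefore also given without it. In G1, 76 of the 87 members were above both G5 and G8 (87.4%), against 55.6% of all genes. G1 was the highest of the 12 livers in 50 members (57.5%), against 19.5% of all genes. The median member in G1 was at 1.41 times the mean of G5 and G8, a log2 ratio of 0.50, while the log2 ratio of the median gene was 0.17. G1 also differed in markers of cell types. The 5 proliferation markers, led by Top2a, summed to 76.7 FPKM in G1 and to 10.6 and 8.18 FPKM in G5 and G8. The 10 stellate cell and myofibroblast markers summed to 226.9 FPKM in G1 and to 95.4 and 74.9 FPKM in G5 and G8. The part of these markers in the ribosomal protein level of G1 was not tested.

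The members spanned a wide range of FPKM. Of the 87 tested, 30 had a mean of at least 100 FPKM, 36 lay between 20 and 100 FPKM, 12 between 5 and 20 FPKM and 9 between 0.5 and 5 FPKM. The highest mean belonged to Rplp1, a protein of the stalk that recruits elongation factors, with 328, 361 and 330.4 FPKM in the control livers. Rplp0, which anchors the stalk, stood at 301, 274 and 256 FPKM in the same livers. Rps4x, Rpl13a, Rpl7 and Rpl26 completed the 6 most abundant members, with means of 299, 297, 264 and 244 FPKM over the 12 livers. Rpsa, a small subunit protein also known as the laminin receptor, had a mean of 131 FPKM but only 29.6 FPKM in G8. Protein-coding transcripts held 85.7% of the members' FPKM and transcripts with a retained intron 7.44%.

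The values of many members were uneven between livers of the same group. Livers of 1 group differed more than 2-fold in 36 of the 87 members in at least 1 group, and the other 51 stayed within 2-fold in every group. Rps2, which lines the mRNA entry site, read 92.1, 14.8 and 24.8 FPKM in the control livers and 10.6, 94.5 and 8.18 FPKM in the phloridzin livers. Rpl41, the shortest of the proteins, read 133, 0.0968 and 32.9 FPKM in the silibinin livers. Rpl23a, which sits at the exit of the nascent chain, read 32.6 FPKM in G8 and at most 1.68 FPKM elsewhere. The levels of such members are uncertain. A share over 2-fold was not special to the family, with 27.6% of members and 23.7% of all genes in the control group and 24.1% and 27.8% in the phloridzin group.

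Reads may be divided between a gene and its pseudogene copies. The table lists 180 pseudogene symbols of these genes, and 48 of them reached 5 FPKM in a liver. For 7 members (Rpl17, Rpl21, Rpl23a, Rpl35a, Rpl7a, Rps12 and Rps27a) the pseudogenes summed to more than the gene itself. Rps27a encodes ubiquitin fused to a small subunit protein and read 14.1, 7.15 and 19.3 FPKM in the control livers, 28.6, 63.9 and 3.23 FPKM in the model livers, 19.0, 58.3 and 7.19 FPKM in the silibinin livers and 127, 3.56 and 21.5 FPKM in the phloridzin livers. Its pseudogenes were at 0 FPKM in the model liver with 63.9 FPKM and at 82.9 FPKM in the model liver with 3.23 FPKM. Rpl30, a large subunit protein, read 131, 14.5 and 70.9 FPKM in the phloridzin livers, where its pseudogenes read 9.69, 44.2 and 10.1 FPKM. In these 3 livers Rpl30 was high where its pseudogenes were low. Rps27a did not follow this in every liver, since in G5 it read 3.56 FPKM and its pseudogenes 0.0412 FPKM. How reads were assigned between a gene and its copies was not tested.

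**Figure D1:**
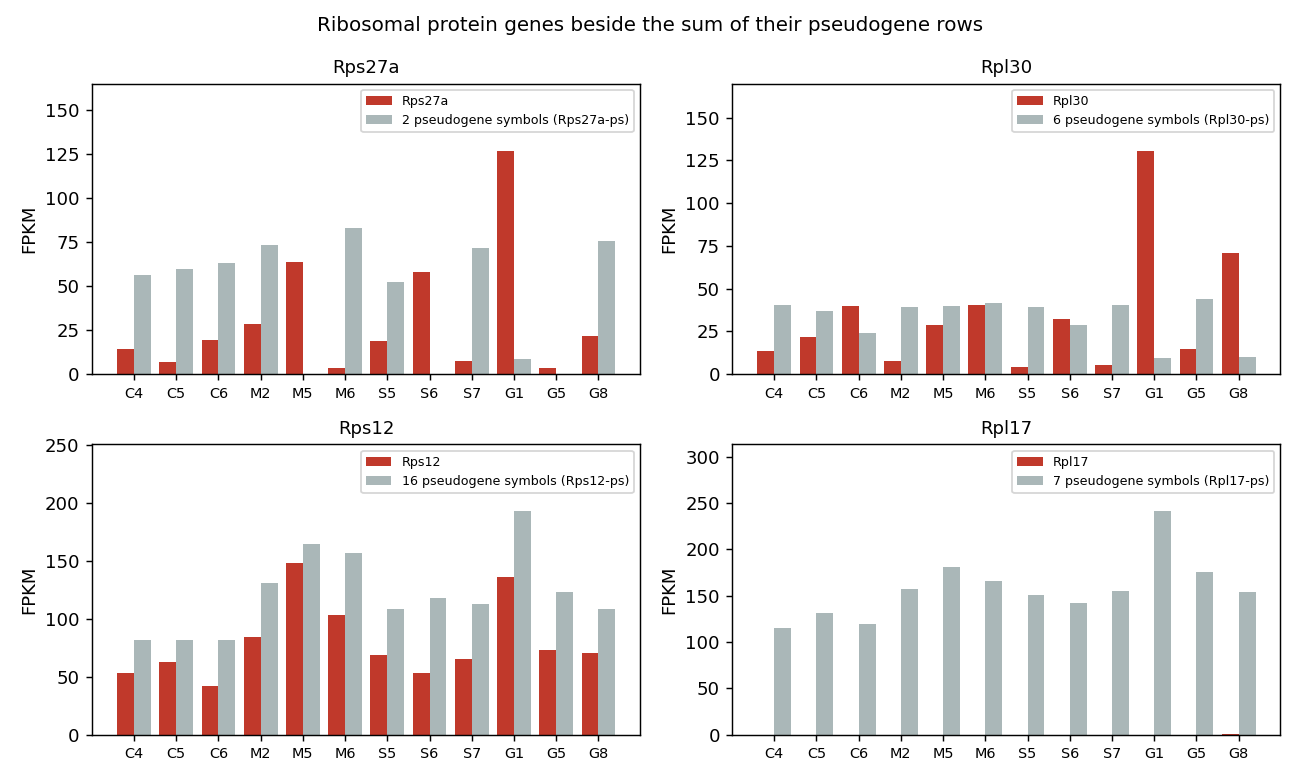
FPKM in each of the 12 livers for Rps27a, Rpl30, Rps12 and Rpl17, drawn as bars beside the summed FPKM of their pseudogene symbols. Rpl17 itself stayed at or below 0.472 FPKM while its pseudogenes summed to between 115 and 241 FPKM.

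Paralogs were unequal. Rps27l, a stress-induced relative of Rps27, was abundant at 175.8, 187 and 163 FPKM in the control livers and 156, 188 and 199 FPKM in the model livers. Rpl36al, an intronless relative of Rpl36a, read 57.8, 53.5 and 77.6 FPKM in the control livers and 72.5, 114 and 94.9 FPKM in the model livers. Rps4l stayed between 8.51 and 15.4 FPKM, Rpl7l1 between 0.644 and 15.8 FPKM and Rps27rt between 14.3 and 71.4 FPKM over the 12 livers. The muscle form Rpl3l stayed at or below 0.057 FPKM, and Rpl39l, known from testis, was listed at 0 in 11 livers and at 0.0496 FPKM in model replicate 3. Rpl10l is not in the table. Rps12l1, named after its values were seen, lay between 32.5 and 89.3 FPKM. Rps27l had the highest mean of the 14.

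Scaling moved the median of all genes and had to be read beside every family value. Between model and control the median log2 fold change of all genes tested was 0.34 in the deposited FPKM (13158 genes), 0.01 after scaling by median ratios (13086 genes) and 0.56 after scaling to a total of 1000000 per liver (TPM, 14692 genes). The filter was applied after scaling, so the gene sets differ. In the deposited FPKM the all-gene median was -0.15 for silibinin against model, -0.11 for phloridzin against model, 0.03 for phloridzin against silibinin, 0.16 for silibinin against control and 0.18 for phloridzin against control. Family medians are therefore also given as the difference from these values. Transcripts assembled without a symbol took 25.5%, 29.8% and 29.8% of the table's FPKM in the control livers and between 19.4% and 21.3% in the other 9. Log2 fold changes were taken on log2(FPKM + 1), which understates changes of genes near 1 FPKM.

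The model group against the control group asks what chronic CCl4 injury does to the ribosomal protein mRNAs. CCl4 kills hepatocytes around the central vein, and the survivors divide while stellate cells turn into matrix-producing myofibroblasts and leukocytes enter. Growing and dividing cells make more ribosomes, and the cell types of the liver differ in how much ribosomal protein mRNA they hold. In whole tissue a change in the number of cells of a type and a change in RNA per cell cannot be told apart.

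The summed FPKM of the 91 genes was 5896, 6223 and 5831 in the control livers and 7478, 8673 and 9290.0 in the model livers. Every model liver was above every control liver. The means were 5984 ± 210.0 FPKM in the control group and 8480 ± 921 FPKM in the model group (SD, n = 3 each), a ratio of 1.42 with an exact two-sided permutation p of 0.1, the smallest that 3 against 3 livers allow. After scaling by median ratios the groups overlapped, with a log2 ratio of 0.06 in place of 0.50 and an exact permutation p of 0.6. The members made up 1.21%, 1.24% and 1.08% of the table's FPKM in the control livers and 1.75%, 1.96% and 2.11% in the model livers. The rise of the sum thus held in the deposited values and in TPM, with a log2 ratio of 0.72, and was not seen after median-ratio scaling.

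**Figure D2:**
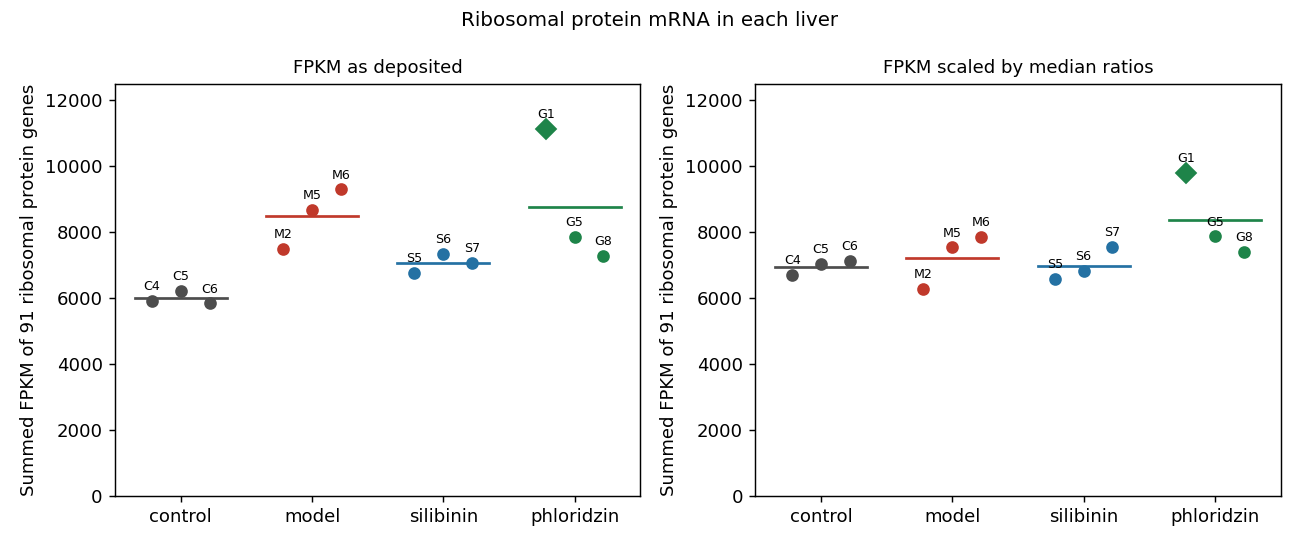
Summed FPKM of the 91 ribosomal protein genes in each liver by group, in panels for the deposited FPKM and its rescaled forms, with group means as lines. In the deposited FPKM the model livers (7478 to 9290.0) lie above the control livers (5831 to 6223) and the silibinin livers (6770 to 7323), G1 is the highest at 11118, and after median-ratio scaling the control, model and silibinin groups overlap.

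The typical member moved with the sum. The median log2 fold change of the 87 members was 0.49, which is 0.16 above the median of all genes, and 83 members were higher and 4 lower. Among all genes 76.0% were higher, against 95.4% of the members. After median-ratio scaling the median was 0.08 and the split was 50 higher and 37 lower, and in TPM, where 88 members passed the filter, it was 0.71 with 85 higher and 3 lower. The median of the other 1711 genes of up to 1000 bases was 0.22. The 50 large subunit members had a median of 0.52 and the 37 small subunit members 0.42. Relative to the all-gene median, 62 members were above and 25 below.

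Few of the rises were strong. In limma with Benjamini-Hochberg adjustment 7 of the 87 members (8.05%) were DE, all upregulated, against 10.5% of all genes tested. Without the fold change cutoff 23 members were higher at an adjusted p under 0.05 (26.4%) and 0 were lower, against 31.1% of all genes called higher. At an unadjusted p under 0.05 were 42 members (48.3%), all of them higher, and 45.8% of all genes in either direction. The model livers lay above all control livers in 47 members (54.0%), against 45.1% of all genes. These shares were near those of all genes. The calls rested partly on single livers and on the scaling. The DE count was 3 without control replicate 1, 2 without model replicate 2 and 4 without model replicate 3. After median-ratio scaling 1 member, Rpl22l1, was DE. Among all 13158 genes, 1382 were DE in the main fit and 1366, 1248 and 1383 in the fits without these livers. After scaling, 979 of 13086 genes were DE. Without the cutoff, 15 members were called without control replicate 1, 15 without model replicate 2, 15 without model replicate 3 and 37 without G1, where 3680, 3612, 3681 and 5220 of the 13158 genes were called, against 4594 with all livers. That count was 3 after median-ratio scaling (3274 of 13086 genes), 55 in TPM (6890 of 14692), 8 with coding transcripts only (3151 of 11313) and 12 with the highest transcript only (2657 of 12333).

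The 7 DE members follow with their values. Rpl12 (ENSMUSG00000038900, GRCm38 2:32961559-32965345, plus strand), a protein at the base of the stalk, was at 40.9, 52.4 and 52.0 FPKM in the control livers and 94.4, 132 and 118 FPKM in the model livers. It rose with a log2 fold change of 1.22 ± 0.198 (SE) and a limma adjusted p of 0.00131, which is 0.88 above the median gene. Rpl12 was DE in each fit that left out 1 liver, and after median-ratio scaling it was at 0.78 with a limma adjusted p of 0.0112.

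Rpl3 (ENSMUSG00000060036, 15:80077791-80091868, minus strand), which reaches into the peptidyl transferase center, was at 73.6, 82.4 and 91.7 FPKM in the control livers and 159, 158 and 183 FPKM in the model livers. The groups were far apart, and Rpl3 rose by a log2 fold change of 1.01 ± 0.204 (SE, limma adjusted p 0.00405). It lay just past the cutoff and was not DE without control replicate 1 or without model replicate 3. Rpl22l1 (ENSMUSG00000039221, 3:28805436-28807424, plus strand) can replace Rpl22 in the large subunit and was at 2.53, 5.83 and 7.002 FPKM in the control livers and 13.6, 32.8 and 28.3 FPKM in the model livers. Its log2 fold change of 2.07 ± 0.568 (SE, limma adjusted p 0.0174) was the largest of the 87 members, and it was not DE without control replicate 1, without model replicate 2 or without model replicate 3. Rpl22 itself was at 27.1, 66.4 and 22.8 FPKM in the control livers and 22.2, 25.2 and 28.5 FPKM in the model livers, so the partner overlapped between the groups. The low paralog had a mean of 24.9 FPKM in the model group, close to the standard gene.

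Rpl5 (ENSMUSG00000058558, 5:107900502-107909005, plus strand), which with Rpl11 carries a small ribosomal RNA and binds Mdm2 under nucleolar stress, was at 24.5, 23.3 and 22.5 FPKM in the control livers and 37.1, 73.5 and 87.7 FPKM in the model livers. It rose by a log2 fold change of 1.37 ± 0.434 (SE, limma adjusted p 0.0324), and among fits without 1 control or model liver it was DE only without model replicate 1. Its partner Rpl11 was at 115, 97.8 and 92.5 FPKM in the control livers and 110.4, 115 and 122 FPKM in the model livers, with a log2 fold change of 0.19 and a limma adjusted p of 0.434. The 2 partners were therefore unequal, though the difference between them was not tested.

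Rps12 (ENSMUSG00000061983, 10:23785183-23787275, minus strand), a protein of the small subunit beak, was at 53.6, 62.7 and 42.4 FPKM in the control livers and 84.2, 148 and 103 FPKM in the model livers. It rose by a log2 fold change of 1.04 ± 0.280 (SE, limma adjusted p 0.016), but its 16 pseudogene symbols summed to between 81.8 and 193.0 FPKM. With their values added its log2 fold change was 0.94 (limma adjusted p 0.00848), just under the cutoff. The call was also lost without control replicate 3 or model replicate 2. Rps24 (ENSMUSG00000025290, 14:24490681-24496959, plus strand), which is mutated in some Diamond-Blackfan anemias, was at 11.1, 19.2 and 24.5 FPKM in the control livers and 27.0, 45.4 and 39.9 FPKM in the model livers. It rose by a log2 fold change of 1.03 ± 0.277 (SE, limma adjusted p 0.0161), and was not DE without control replicate 1, model replicate 2 or model replicate 3. Rps25 (ENSMUSG00000009927, 9:44407139-44410427, plus strand), which many viral mRNAs need to start translation, was low at 3.12, 1.82 and 4.03 FPKM in the control livers and 7.14, 9.98 and 5.10 FPKM in the model livers. It rose by a log2 fold change of 1.07 ± 0.262 (SE, limma adjusted p 0.0102), and was not DE without control replicate 2 or model replicate 2. With its pseudogene added it had 0.19 (limma adjusted p 0.654), and the groups overlapped. All 7 DE members had model livers above every control liver, as had 45.1% of all genes. Their selection as DE from the same values favours such a separation.

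**Figure D3:**
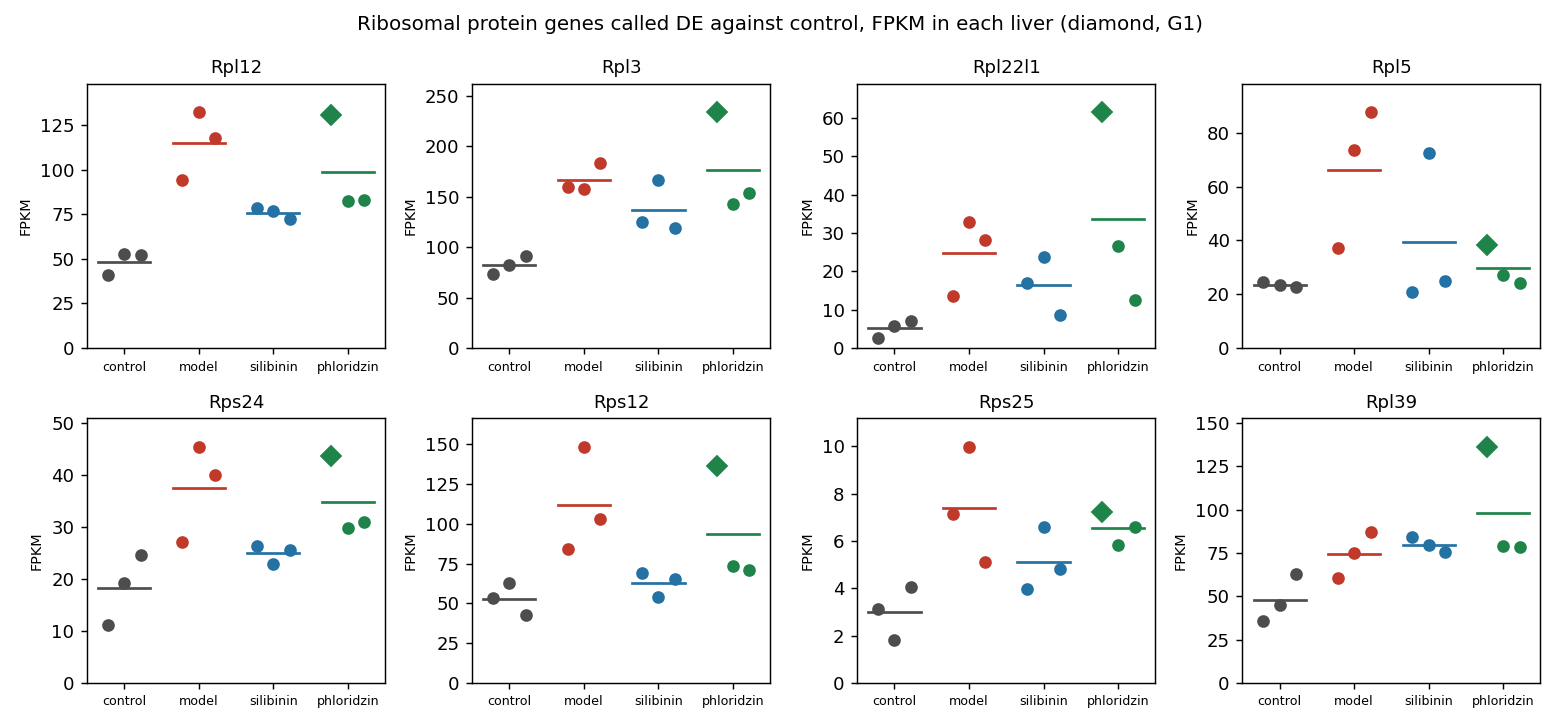
FPKM in each liver by group for Rpl12, Rpl3, Rpl22l1, Rpl5, Rps24, Rps12, Rps25 and Rpl39, with lines at group means and a diamond for G1. Rpl12 lies between 40.9 and 52.4 FPKM in the control livers and between 94.4 and 132 FPKM in the model livers.

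The stalk and several well-known members rose less or did not pass. Rplp2 was at 41.2, 35.2 and 43.2 FPKM in the control livers and 58.4, 63.4 and 67.5 FPKM in the model livers, a rise of 0.65 with a limma adjusted p of 0.00579. Rplp0 reached 363, 407 and 469 FPKM in the model livers, a rise of 0.57 with a limma adjusted p of 0.033. Rplp1 stood at 478, 399 and 611 FPKM in the model livers, with a log2 fold change of 0.52 that did not pass (limma adjusted p 0.0525) and passed without G1 at 0.0299. The model livers were above the control livers for all 3 stalk genes. Rps6, the substrate of the S6 kinases, was at 149, 162 and 126 FPKM in the control livers and 181, 264 and 189.8 FPKM in the model livers, a rise of 0.52 with a limma adjusted p of 0.0443. Rpsa was at 90.9, 118 and 96.7 FPKM in the control livers and 122, 191 and 179 FPKM in the model livers, with a limma adjusted p of 0.371. All 5 genes had model livers above every control liver, a separation also seen in 45.1% of all genes. After median-ratio scaling none of the 5 passed.

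Rps19, the gene most often mutated in Diamond-Blackfan anemia, had a log2 fold change of 0.34 (limma adjusted p 0.215), which equals the median gene. With the highest transcript only, Rps19 was DE and upregulated. Rps3, at the mRNA entrance, had 0.36 (limma adjusted p 0.0892), and Rpl13a, which can leave the ribosome to silence inflammatory mRNAs, had 0.34 (limma adjusted p 0.15). Among the 3 largest rises Rpl29 did not pass, at 1.69 with a limma adjusted p of 0.0942, which was at 21.2 FPKM in model replicate 2 and at most 1.26 FPKM in the other 11 livers. The largest falls were Rps27 at -0.86, Rpl22 at -0.44 and Rpl30 at -0.12, and none passed. In Rps27 the model livers ranged from 8.10 to 45.5 FPKM.

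Markers of other cell types were higher in the model livers, and their part in the ribosomal protein result was not tested. Of the DE markers, 4 of 12 belonged to macrophages, 2 of 9 tested to lymphocytes, 6 of 10 to stellate cells and myofibroblasts, 1 of 3 tested to cholangiocytes and 2 of 5 to proliferating cells, all of them upregulated. Macrophage markers, led by Lyz2, summed to 145, 249 and 207 FPKM in the control livers and 391, 625 and 531 FPKM in the model livers. Stellate markers, led by Col3a1, summed to 34.6, 25.1 and 28.9 FPKM in the control livers and 174, 142 and 177 FPKM in the model livers. Lymphocyte markers, led by Ptprc, summed to 7.43, 13.3 and 10.7 FPKM and then to 29.4, 47.3 and 35.5 FPKM. Cholangiocyte markers, led by Spp1, summed to 11.3, 13.04 and 16.8 FPKM and then to 46.3, 55.7 and 50.3 FPKM. Proliferation markers summed to 0.759, 1.45 and 1.70 FPKM and then to 13.8, 11.8 and 14.7 FPKM. These lists did not overlap between the groups. Endothelial markers, led by Clec4g, summed to 81.5, 70.8 and 85.3 FPKM and then to 89.9, 107 and 90.9 FPKM. Their sums did not overlap either, but 0 of 8 were DE in limma. Hepatocyte markers had 1 of 10 DE, Cyp2e1, which was downregulated. Blood markers, led by Hbb-bs, summed to 1085, 1149 and 979 FPKM and then to 782, 820.2 and 577 FPKM, lower without overlap. No marker was at 0 in all 12 livers.

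The silibinin group against the model group asks how the reference drug changes the injured liver, with CCl4 still being given. Silibinin scavenges radicals and has been described to raise ribosomal RNA synthesis in hepatocytes, which would call for ribosomal proteins as well. The 2 drug comparisons share the 3 model livers, so an unusual model liver enters both.

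The summed FPKM was 6770, 7323 and 7066 in the silibinin livers. Every silibinin liver was below every model liver and above every control liver. The mean of 7053 ± 277 FPKM (SD, n = 3) was 0.832 times that of the model group, with an exact two-sided permutation p of 0.1. The log2 ratio of -0.27 became -0.05 after median-ratio scaling, where the groups overlapped and the exact permutation p was 0.8, and -0.30 in TPM. The typical member followed, with a median log2 fold change of -0.29, which is -0.14 relative to all genes. Of the 87 members 8 were higher and 79 lower, and after median-ratio scaling 31 were higher and 56 lower around a median of -0.08. Only 9.20% of the members were higher, against 34.2% of all genes. The median became -0.42 without model replicate 1, the model liver with the lowest sum.

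Few members passed in this comparison. In limma 1 of 87 members (1.15%) was DE and downregulated, against 4% of all genes tested. Without the cutoff 3 members were lower (3.45%, against 11.4% of all genes). That count was 9 without G1, where 2255 of 13158 genes were called in either direction against 1849 with all livers. It was 1 without any single model liver or without silibinin replicate 2 or 3, where between 1114 and 1473 genes were called. The silibinin livers lay below all model livers in 29 members (33.3%, against 27.8% of all genes). The DE member was Rpl18 (ENSMUSG00000059070, 7:45715457-45720836, plus strand), a large subunit protein, at 10.98, 56.9 and 15.4 FPKM in the model livers and 3.64, 4.13 and 6.50 FPKM in the silibinin livers. It fell by 2.00 ± 0.482 on the log2 scale (SE, limma adjusted p 0.0203). The silibinin livers were below all model livers and reached into the control range of 11.7, 10.9 and 6.33 FPKM. Without model replicate 2, the highest liver, the log2 fold change was -1.32 (limma adjusted p 0.0218). Without silibinin replicate 1 no member was DE or passed without the cutoff in limma, and with all 12 livers 16 were at an unadjusted p under 0.05 (18.4%, against 29.2% of all genes). Without silibinin replicate 2 the DE member was Rpl5 in place of Rpl18.

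The other members below the threshold were Rplp2 and Rps3a2. Rplp2 was at 42.4, 46.9 and 43.4 FPKM in the silibinin livers, close to the control livers, and fell by 0.50 ± 0.141 on the log2 scale (SE, limma adjusted p 0.0392). Rps3a2, a retrocopy of Rps3a1 named after its values were seen, was at 2.17, 2.51 and 2.31 FPKM in the model livers and 1.54, 1.51 and 1.55 FPKM in the silibinin livers, and fell by 0.39 (limma adjusted p 0.0417). Rpl18 remained DE after median-ratio scaling (-1.79, limma adjusted p 0.0404), while Rplp2 then read -0.29 with a limma adjusted p of 0.18. Rpl18 was not DE with coding transcripts only or with 2 groups in the fit. Of the members upregulated by CCl4, Rpl12 was at 78.3, 76.6 and 72.4 FPKM in the silibinin livers, between the other groups, with a log2 fold change of -0.58 (limma adjusted p 0.0772). Rps12 was at 68.9, 53.8 and 65.5 FPKM, with a log2 fold change of -0.79 (limma adjusted p 0.0866). Rpl3 was at 125, 167 and 119 FPKM and overlapped the model livers.

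The largest changes came from uneven members. Rpl41 was at 180.3, 75.6 and 52.6 FPKM in the model livers and had a log2 fold change of -2.41 (limma adjusted p 0.264), carried by the 0.0968 FPKM of silibinin replicate 2. Rpl29 had -1.69 (limma adjusted p 0.15), carried by model replicate 2. The largest rises were Rps2 and Rpl7l1 at 0.36 and Rps13 at 0.31, and none passed. No marker list had a DE gene between these groups, but some leaned to 1 side. Endothelial markers were higher in 0 of 8 (median -0.37), stellate markers in 1 of 10 (-0.35) and hepatocyte markers in 9 of 10 (0.34). Proliferation markers were higher in 5 of 5 (0.14) and blood markers in 1 of 5 (-0.84). The part of these markers in the family's values was not tested.

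The phloridzin group against the model group asks whether phloridzin changes the injured liver. Phloridzin blocks sodium-glucose cotransport and so alters glucose supply, and glucose and insulin act on ribosomal proteins through mTOR. Any effect on translation would not need to show in mRNA levels.

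The summed FPKM was 11118 in G1, 7845 in G5 and 7275 in G8. G1 was above all model livers, whereas G5 lay among them and G8 below them. The mean of 8746 ± 2073 FPKM (SD, n = 3) gave a log2 ratio of 0.04 to the model group, with an exact permutation p of 0.9. Without G1 the log2 ratio was -0.17 (exact permutation p 0.3). It was 0.21 after median-ratio scaling (exact permutation p 0.4), -0.08 in TPM (exact permutation p 0.7) and -0.04 without model replicate 1, so the sum had no stable direction. The median member was at -0.01, or 0.10 above all genes, with 41 higher and 46 lower. That split was 58 and 29 around a median of 0.17 after median-ratio scaling, 33 and 55 around -0.12 in TPM and 23 and 64 around -0.17 without G1.

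No member was DE between phloridzin and model in limma (0 of 87, against 3.52% of all genes). Without the cutoff again 0 passed, against 12.9% of all genes, and 5 members were at an unadjusted p under 0.05 (5.75%, against 27.8%). These were Rpl29, Rpl32l, Rpl5, Rps10 and Rps9, of which Rpl32l, Rps10 and Rps9 are named after their values were seen. Rpl29 passed the filter only through its level in the model group, which favours a fall from that group. Groups did not overlap in 1 member above the model livers (Rps10, 1.15% against 8.21% of all genes) and in 2 below (Rpl29 and Rps4l, 2.30% against 22.4%). Without G1 the other phloridzin livers were below all model livers in 28 members (32.2%), against 36.4% of all genes, and limma called 3 lower without the cutoff and 0 DE, against 1714 of all 13158 genes lower and 638 DE. After median-ratio scaling with all livers 3 were called without the cutoff, all higher, against 1444 of 13086 genes in either direction. Without G1 the members were thus below the model livers about as often as other genes.

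Rps10 (ENSMUSG00000052146, 17:27630422-27636629, minus strand), a small subunit protein that is ubiquitinated when ribosomes collide, was at 59.4, 75.7 and 72.7 FPKM in the model livers, 55.5, 59.0 and 59.7 FPKM in the silibinin livers and 109, 87.7 and 86.1 FPKM in the phloridzin livers. All phloridzin livers, G5 and G8 included, were above the other 9. The log2 fold change against the model group was 0.44 ± 0.150 (SE, limma adjusted p 0.083), and after median-ratio scaling it was 0.62 and passed (limma adjusted p 0.0297). Rpl5 was at 38.5, 27.2 and 24.1 FPKM in the phloridzin livers, near the control level, with a log2 fold change of -1.06 (limma adjusted p 0.142), and it was DE without silibinin replicate 2. Rpl12 was at 130.3, 82.6 and 83.0 FPKM, with G1 inside the model range and G5 and G8 below it. Rps12 was at 136, 73.2 and 71.1 FPKM and was split in the same way.

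Members with the largest changes were again uneven. Rps13, a small subunit protein, had a log2 fold change of 1.44 (limma adjusted p 0.385) with 1.16, 21.5 and 22.7 FPKM in the model livers and 31.6, 19.6 and 33.3 FPKM in the phloridzin livers. Rpl30 at 1.26 rested on G1 and G8, and Rpl23a at 1.11 rested on G8. Rpl29 at -1.67 rested on model replicate 2, and Rpl41 had -1.04. None of these passed in limma. Each of the marker lists had 0 DE genes in this comparison, but some leaned to 1 side. Stellate markers were higher in 1 of 10 (median -0.34), blood markers in 1 of 5 (-0.71) and proliferation markers in 5 of 5 (0.44). Without G1 these counts were 1, 2 and 1. The part of these markers in the family's values was not tested.

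Phloridzin against silibinin is the direct test of whether the drugs differ in these mRNAs. Its fold changes use neither control nor model livers, while its variance is estimated from all 12 livers. The drugs act on different targets, and the part of these targets in any difference of the ribosomal protein mRNAs was not tested.

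The median member was 0.30 higher with phloridzin, 0.27 above the all-gene median, and 78 members were higher and 9 lower. The direction was the same after median-ratio scaling (0.27, with 74 higher and 13 lower) and in TPM (0.21, with 69 higher and 19 lower). Without G1 the median was 0.13, with 59 higher and 28 lower, against -0.03 for all genes. In the deposited FPKM 89.7% of the members against 56.2% of all genes were higher. The sums overlapped, since G8 at 7275 was below silibinin replicate 2 at 7323, with a log2 ratio of 0.31 (exact permutation p 0.2) and 0.10 without G1 (exact permutation p 0.3).

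No member was DE between the drugs in limma (0 of 87, against 0.0228% of all genes), and 13 members, all of them higher with phloridzin, were at an unadjusted p under 0.05 (14.9%, against 3.75% of all genes). The phloridzin livers lay above all silibinin livers in 30 members (34.5%, against 5.19% of all genes). Without G1 that count was 32 (36.8%, against 8.99%). No single member passed, yet the groups were separated in a larger share of members than of other genes. The members were measured in the same livers and are not independent, so these shares do not test a difference between the drugs. At the level of livers the sums overlapped (exact permutation p 0.2). Rps10 had the lowest unadjusted p of limma, 0.000932, with a log2 fold change of 0.68 ± 0.150 (SE) and an adjusted p of 1. Rps9, at the mRNA entrance beside Rps3, was at 86.8, 92.4 and 93.6 FPKM in the silibinin livers and 133, 114 and 115 FPKM in the phloridzin livers. Rps3 was at 70.3, 74.8 and 81.0 FPKM with silibinin and 119.7, 97.3 and 85.4 FPKM with phloridzin. In both genes all phloridzin livers were above all silibinin livers. Among the marker lists, 8 of 8 endothelial, 9 of 12 macrophage and 5 of 5 proliferation markers were also higher with phloridzin, and 2 of 10 hepatocyte markers. Without G1 these counts were 8, 7, 0 and 4. No marker was DE in limma, and their part in the family's values was not tested. The median of the other genes of up to 1000 bases was 0.11. The largest rises, Rpl30 at 2.33, Rpl23a at 1.55 and Rps27 at 1.53, and the falls of Rps2 at -1.13 and Rpl7l1 at -0.61 all came from members with uneven livers.

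**Figure D4:**
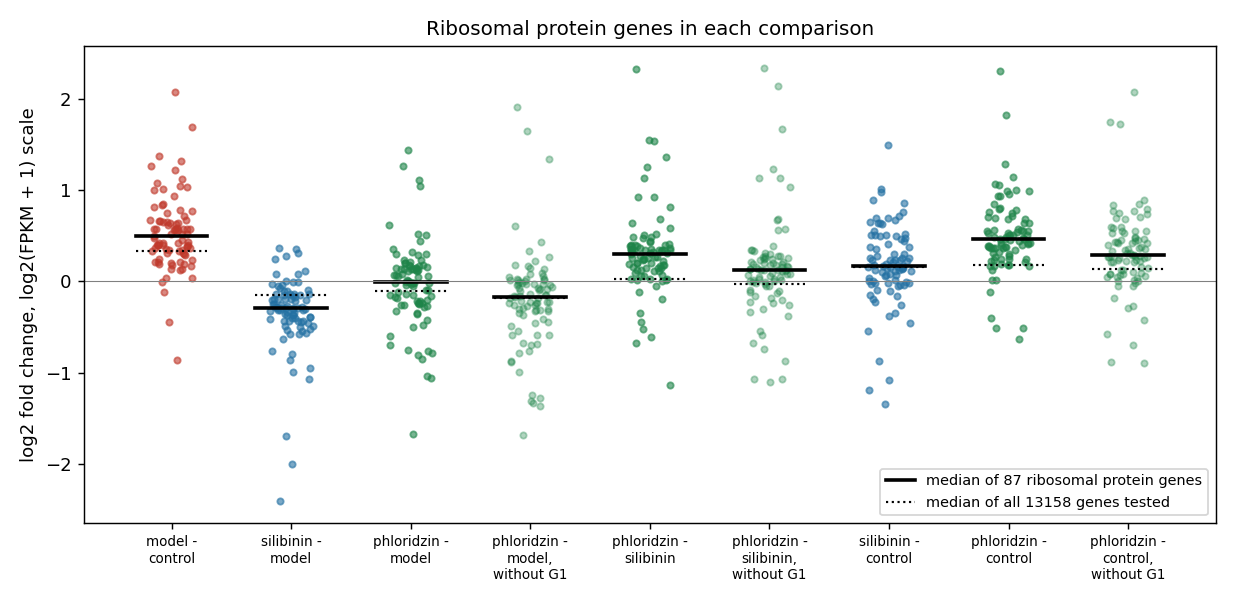
Log2 fold change of the 87 members in each comparison of the deposited FPKM, with phloridzin comparisons also drawn without G1; each dot is a member, the thick line is the median of the members and the dotted line the median of all 13158 genes. The member median is 0.49 for model against control, -0.29 for silibinin against model, -0.01 for phloridzin against model and 0.30 for phloridzin against silibinin; after median-ratio scaling the value for phloridzin against model turns positive (0.17).

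The treated groups against the control group ask how far the level of an uninjured liver was regained. Both comparisons share the control livers with the model comparison, so their similarity is partly built in. All 3 injected groups received CCl4 while the drugs were given to 2 of them.

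For silibinin the summed FPKM was above the control group by a log2 ratio of 0.24 without overlap (exact permutation p 0.1), and by 0.01 with overlap after median-ratio scaling. In TPM the log2 ratio was 0.42 without overlap. The median member was at 0.17 with 64 higher and 23 lower, against 0.16 for all genes, and turned to -0.06 with 38 higher and 49 lower after median-ratio scaling. Relative to all genes the family stood at the control level. Limma called 0 of 87 members DE (1.98% of all genes) and had 10 at an unadjusted p under 0.05 (11.5%, against 21.5%). The silibinin livers were above all control livers in 18 members (20.7%, against 26.4%). Without G1, 5 members passed without the cutoff, against 1264 of 13158 genes, where 0 members and 661 genes passed with all livers. In TPM 9 members passed (2203 of 14692 genes), and with 2 groups in the fit 3 passed (717 of 13158 genes).

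For phloridzin the sum was above the control group by a log2 ratio of 0.55 (exact permutation p 0.1), by 0.27 after median-ratio scaling and by 0.34 without G1, without overlap in each case. The median member was at 0.47, or 0.29 above all genes, with 82 higher and 5 lower, and at 0.21 with 70 higher and 17 lower after median-ratio scaling. Without G1 it was at 0.29, or 0.15 above all genes, with 74 higher and 13 lower. Limma called 3 of 87 members DE (3.45%, against 3.02% of all genes), all upregulated, and 10 higher without the cutoff (11.5%, against 7.51%). The phloridzin livers were above all control livers in 40 members (46.0%, against 26.8%), and without G1 again in 40 (against 31.4% of all genes). The DE members depended on single livers, with 0 DE without G1, 0 without control replicate 1, 1 without silibinin replicate 1 and 0 after median-ratio scaling. Among all genes 245, 214, 339 and 249 were DE in these fits, against 398 in the main fit. Without the cutoff 3 members were called without G1, 0 without control replicate 1, 2 without control replicate 2, 3 without phloridzin replicate 2, 5 without silibinin replicate 1 and 6 without silibinin replicate 2. In these fits 556, 367, 396, 600, 766 and 852 of the 13158 genes were called, against 1051 with all livers. That count was 2 after median-ratio scaling (777 of 13086 genes), 32 in TPM (1990 of 14692) and 0 with 2 groups in the fit (207 of 13158).

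Rpl3 was at 234, 143 and 153 FPKM in the phloridzin livers and rose by 1.06 ± 0.204 (SE, limma adjusted p 0.015), and without G1 it had 0.84 with a limma adjusted p of 0.0289. Rpl22l1 was at 61.6, 26.7 and 12.6 FPKM and rose by 2.31 ± 0.568 (SE, limma adjusted p 0.036), but without G1 it had 1.75 and did not pass (limma adjusted p 0.104). Rpl39 (ENSMUSG00000079641, X:37082520-37085402, minus strand), which lines the exit tunnel, was at 35.9, 45.0 and 62.6 FPKM in the control livers and 136, 78.8 and 78.4 FPKM in the phloridzin livers. It rose by 1.00 ± 0.252 (SE, limma adjusted p 0.0384) and did not pass without G1 (0.74, limma adjusted p 0.0993). In silibinin livers Rpl39 was at 84.3, 79.8 and 75.4 FPKM, and in the model livers without a drug at 60.7, 75.1 and 87.3 FPKM. Both drug groups were above all controls for this gene. The model livers were at a similar level to the silibinin livers, with the lowest inside the control range.

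Markers of several other cell types were also higher than in the control group, and their part in the ribosomal protein values was not tested. For phloridzin, 7 of 12 macrophage markers, 3 of 10 stellate markers, 2 of 5 proliferation markers, 1 of 9 lymphocyte markers and 1 of 3 cholangiocyte markers were DE in limma, all upregulated. Without G1 these counts were 3, 2, 3, 1 and 1. Macrophage markers summed to 738, 709.9 and 389 FPKM in the phloridzin livers and 469, 592 and 448 FPKM in the silibinin livers. For silibinin, 4 of 12 macrophage markers, 2 of 10 stellate markers, 2 of 9 lymphocyte markers and 1 of 5 proliferation markers were DE, all upregulated. The blood marker Hba-a1 was DE and downregulated in both comparisons, and Cyp2e1 of hepatocytes was DE and downregulated for phloridzin. The Rpl22l1, Rpl3 and Rpl39 rises were thus seen in livers that also differed from the controls in these markers.

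Related genes place the family among other parts of the translation machinery. Genes of ribosome biogenesis process ribosomal RNA and assemble subunits in the nucleolus. Compared with the control group, all 44 tested were higher in the model group, with a median of 0.77, and 13 were DE in limma, all upregulated. After median-ratio scaling 39 of 44 were higher around 0.39 and 5 were DE. The median of the ribosomal proteins in this comparison was 0.49. Silibinin against model gave a median of -0.78 with 9 DE and downregulated, and phloridzin against model gave -0.72 with 9 DE and downregulated. After median-ratio scaling the medians were -0.59 and -0.56 with 6 and 5 DE. Without phloridzin replicate 1 the phloridzin median was -0.72 and 12 were DE. The ribosomal proteins had a median of -0.01 for phloridzin against model, and of -0.17 with 64 of 87 lower without G1. The difference between the lists was not tested.

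Myc, which drives both ribosome biogenesis and ribosomal protein genes, was at 0.940, 0.450 and 0.959 FPKM in the control livers, 8.93, 9.90 and 8.54 FPKM in the model livers, 1.51, 1.39 and 2.05 FPKM in the silibinin livers and 2.01, 1.303 and 2.49 FPKM in the phloridzin livers. It rose by 2.52 in the model group (limma adjusted p 1.8e-05) and fell by 1.94 with silibinin and by 1.81 with phloridzin (limma adjusted p 0.000128 and 0.000199). The box C/D protein gene Nop56 rose by 2.12 and fell by 2.20 and 2.01. Gnl3, which encodes nucleostemin, rose by 1.53 and fell by 1.55 and 1.17, and Nop58 rose by 1.49 and fell by 1.56 and 1.61.

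Translation elongation genes lay between. The 10 genes had a median of 0.53 for model against control with 2 DE, Eef1b2 and Eef1e1, and medians of -0.56 for silibinin and -0.41 for phloridzin against model, each with Eef1b2 DE. Without G1 the phloridzin median was -0.54. After median-ratio scaling the medians were 0.15, -0.35 and -0.25. The count of 2 became 1 without control replicate 3, model replicate 2 or model replicate 3. Eef1b2 was at 3.66, 6.39 and 5.82 FPKM in the control livers and 19.0, 11.99 and 16.2 FPKM in the model livers. Its DE call against the model group was lost for phloridzin without model replicate 1 or phloridzin replicate 2. The 16 other mRNAs with a TOP motif had a median of 0.37 for model against control, which became -0.07 after median-ratio scaling, and Vim and Eef1b2 were DE. Rack1, a ribosome-bound protein outside the symbol rule, was at 11.9, 9.71 and 9.76 FPKM in the control livers and 26.9, 25.3 and 23.4 FPKM in the model livers, and rose by 1.195 (limma adjusted p 0.00356), while Fau did not pass.

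Mitochondrial ribosomal proteins were mixed. The 77 tested had a median of 0.11 for model against control with 53 of 77 higher, below the all-gene median of 0.34. After median-ratio scaling the median turned to -0.27 with 17 of 77 higher. Only Mrpl49 was DE, at 8.49, 8.45 and 7.59 FPKM in the control livers and 0.153, 0.223 and 0.255 FPKM in the model livers. Without the cutoff 5 mitochondrial members were higher and 4 lower. The difference from the cytosolic family was not tested. None of the 15 genes for the control of ribosomal protein mRNA was DE in limma, and Rheb and Akt1 were higher in the model group at adjusted p 0.00435 and 0.0394 without the cutoff. Of the 12 snoRNA hosts 4 were tested, and Snhg5 rose by 1.14 in the model group and fell by 1.05 with silibinin. The 23 short abundant mRNAs outside translation had a median of -0.03 for model against control, and Tmsb4x was DE. The 20 long abundant mRNAs had a median of -0.25, and Fasn, Acaca and Aox3 were DE, of which 2 were higher and 1 lower.

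**Figure D5:**
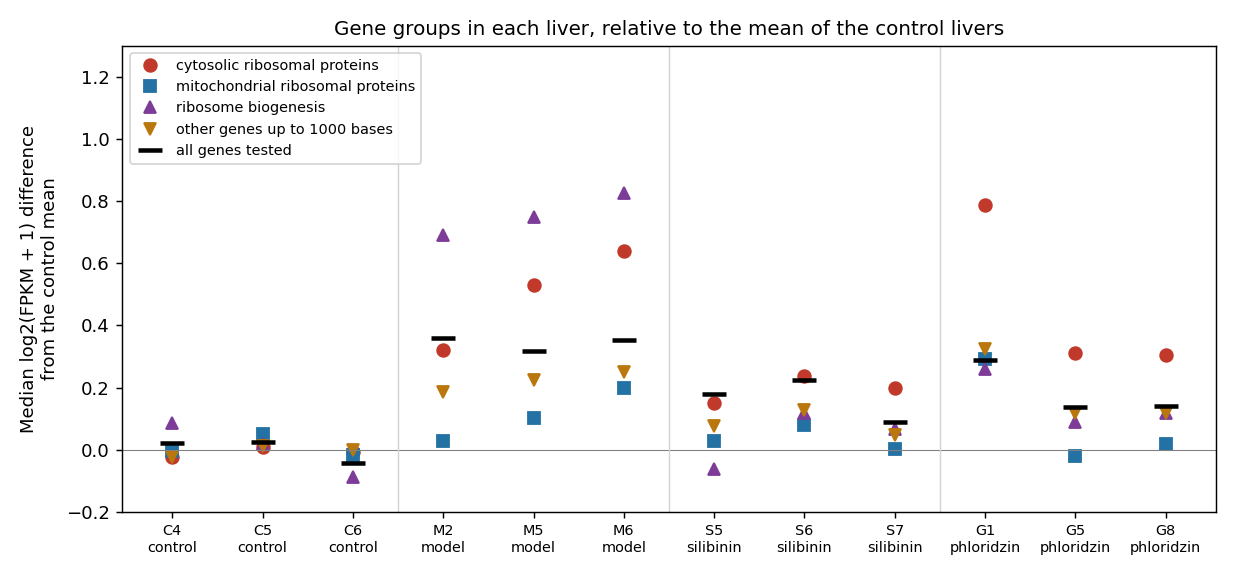
Median log2 ratio to the control mean in each liver for cytosolic ribosomal proteins, mitochondrial ribosomal proteins, ribosome biogenesis, other genes of up to 1000 bases and all genes, in the deposited FPKM. Cytosolic ribosomal proteins reach 0.32, 0.53 and 0.64 in the model livers and 0.79 in G1, biogenesis reaches 0.69, 0.75 and 0.83 in the model livers and 0.26 in G1, and under median-ratio scaling the family median of model against control is 0.08.

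The starts of the member genes were read from the RefSeq promoters of mouse build GRCm38.p6, of which 78 matched 66 of the 91 members and 57 of the 77 standard genes. A run of at least 8 C or T bases within 3 bases of the start was present in 23 of the 78 (29.5%), against 7.89% of all 32851 promoters of the same length. On the other strand it was 2.56% against 8.89%. A C at the start followed by 4 C or T bases, the form of the TOP motif, was present in 15 (19.2%), against 2.51% of all promoters. Among 75 promoters of mitochondrial ribosomal proteins these shares were 6.67% and 0, and among 47 of biogenesis genes 4.26% and 0. The motif is a description of the sequence and was not linked to a change. The window from 30 bases before to 20 bases after the start is given for members that were DE and for Rplp2 and Rps6, chosen after their starts were seen as members with the C and 4 pyrimidines. Capitals mark the pyrimidine run at the start, shown so that its length can be compared between members. No entry matched Rpl3.
Rpl12 (chr2:32961682-32961731, plus strand): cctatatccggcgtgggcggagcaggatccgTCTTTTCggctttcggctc
Rpl22l1 (chr3:28805478-28805527, plus strand): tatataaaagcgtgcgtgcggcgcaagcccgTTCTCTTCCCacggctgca
Rpl5 (chr5:107900498-107900547, plus strand): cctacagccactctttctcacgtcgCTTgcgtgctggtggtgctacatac
Rps12 (chr10:23787190-23787239, minus strand): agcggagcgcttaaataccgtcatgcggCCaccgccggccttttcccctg
Rps24 (chr14:24490648-24490697, plus strand): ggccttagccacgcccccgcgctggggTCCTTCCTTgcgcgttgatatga
Rps25 (chr9:44407684-44407733, plus strand): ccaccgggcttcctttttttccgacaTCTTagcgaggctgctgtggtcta
Rpl18 (chr7:45718041-45718090, plus strand): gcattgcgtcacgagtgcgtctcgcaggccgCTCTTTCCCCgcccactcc
Rpl39 (chrX:37085203-37085252, minus strand): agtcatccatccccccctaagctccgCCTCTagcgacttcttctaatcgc
Rplp2 (chr7:141447621-141447670, plus strand): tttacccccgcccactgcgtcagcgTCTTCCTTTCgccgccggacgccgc
Rps6 (chr4:86857348-86857397, minus strand): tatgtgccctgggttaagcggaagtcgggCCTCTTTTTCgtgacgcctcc
The runs were 10 bases in Rpl18, Rpl22l1, Rplp2 and Rps6, 9 in Rps24, 7 in Rpl12, 5 in Rpl39, 4 in Rps25, 3 in Rpl5 and 2 in Rps12. A further Rps24 promoter at a later start has a run of 2.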

How the data were processed

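Total RNA of 12 mouse livers was sequenced (NovaSeq), 3 in each of 4 groups. The authors deposited FPKM values per transcript and liver without a correction for library composition. The processing notes of the authors name bcl2fastq, FastQC 0.11.5, HISAT2 2.1.0, StringTie 1.3.3b, DESeq 1.28.0 and build mm10. The unit was read from the values, which also gave the depth of 83700000 to 110900000 fragments per liver. Replicates are separate livers per the labels.

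FPKM was summed over the transcripts of a symbol. Symbols with a mean of at least 0.5 FPKM over the 12 livers (13158) were tested with limma 3.58.1 (R 4.3.3, trend in the variance, empirical Bayes) on log2(FPKM + 1), 1 fit of 12 livers and 6 comparisons. P-values are two-sided with Benjamini-Hochberg adjustment over all genes of a comparison. DE means an adjusted p under 0.05 together with a log2 fold change past 1 in either direction. Sums were compared by exact two-sided permutation tests. The fit was tested on simulated data. Summaries used Python 3.11.15, numpy 2.4.6, pandas 2.3.3, scipy 1.17.1, matplotlib 3.10.9 and the R package data.table, version 1.17.8. Gene positions are the outermost deposited coordinates of the transcripts of a symbol. In GENCODE M21 (GRCm38), which gave transcript lengths and types, 437 of the 452 member transcripts (96.7%) have the same position.

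Genes named are the 6 members with the highest mean, the 3 largest rises and falls in 4 comparisons, DE members (up to 6 per direction), the stalk proteins and Rpsa, paralogs, members with well-known roles, and from other lists the DE genes (up to 4 per direction) or the 2 with the highest mean. Members and lists were chosen with earlier results of these data known, and the marker and related lists describe the data without set tests. Alternatives were median-ratio scaling, TPM, a pseudocount of 0.1, no filter or a filter of 5 FPKM, the highest transcript only, 2 groups in the fit, a replicate block and leaving out each liver. Coding transcripts only, pseudogenes added to their parent, and TPM for counts and medians were chosen after seeing the data. Raw reads and protein were not used here.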

Additional observations from a re-analysis of the deposited data

How the results depend on the processing

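Scaling, transcript choice and single livers moved several results, and the cause was not tested. For model against control the DE count of 7 became 1 with median ratios, 15 in TPM, 4 with the highest transcript only, 3 with coding transcripts only, 23 without the fold change cutoff and 2 to 8 when each liver was left out. All genes moved as well, from 1382 DE of 13158 to 979 of 13086 with median ratios, 3024 of 14692 in TPM, 992 of 12333 with the highest transcript only and 1034 of 11313 with coding transcripts only. Its member median of 0.49 became 0.0755 with median ratios and 0.71 in TPM. For silibinin against model the DE count of 1 became 0 with coding transcripts only and 0 with 2 groups in the fit. It was 3 without the cutoff and 0 to 1 when each liver was left out. All genes had 526 DE of 13158 in the main fit, 526 with 2 groups and 427 of 11313 with coding transcripts only. The member median of -0.29 became -0.0828 with median ratios and ranged from -0.42 to -0.23 when each liver was left out. For phloridzin against control the DE count of 3 became 0 with median ratios, 6 in TPM, 1 without the filter, 1 with a filter of 5 FPKM, 0 with 2 groups in the fit, 1 with a replicate block, 10 without the cutoff and 0 to 4 when each liver was left out, while all genes moved from 398 DE to 249 with median ratios, 959 in TPM and 143 with 2 groups. The replicate numbers do not pair livers: deviations from the group mean correlated over genes between same-numbered livers at -0.09 to 0.10 (18 pairs, median 0.004), within the -0.17 to 0.15 of other pairs (36), and the replicate block is no pairing of animals. The silibinin against control median of 0.17 became -0.0593 with median ratios and 0.35 in TPM, and ranged from 0.16 to 0.23 when each liver was left out. The log2 ratio of sums for phloridzin against model, 0.04, reversed to -0.0832 in TPM, to -0.04 without model replicate 1 and to -0.17 without phloridzin replicate 1, with a range of -0.17 to 0.16 when each liver was left out, and was 0.21 with median ratios. The log2 ratio of sums for model against control, 0.50, became 0.06 with median ratios. The phloridzin against model median of -0.01 was positive under several alternatives, up to 0.17 with median ratios. Coding transcripts only, added pseudogenes and TPM for counts and medians were chosen after seeing the data. With 3 livers per group the sums could not reach an exact p below 0.1.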
